A study of Rattus norvegicus with 2 samples.

Results

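Prostanoid synthesis and phospholipase A2 genes were read on arrays of cultured rat endothelial cells from the endocardium, the lining of the heart chambers, and from the aorta. The set held the genes Ptgs1, Ptgs2, Ptgis, Ptgds, Pla2g4a, Pla2g2a and Ptger4, and comprised 7 of the 4736 genes on the array. The members were listed by name and not by a rule on their values, though earlier results of these data were known. They were read by every probe set whose annotation gave that symbol alone, 8 of 7006 such probe sets, with 2 for Ptgs2 and 1 for each other gene. Endocardial and aortic cells came from the same 2 rats, so the rats were shared by both groups. The cells of each origin were pooled, kept apart and cultured for 2 passages at closely matched confluence, with no treatment named. Total RNA of each pool was hybridised to 1 Affymetrix rat genome U34A array. With 1 array in each group no difference could be checked against replicates, so the values are given without tests or p-values.

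Prostanoids are short-lived lipid signals made from arachidonic acid. Phospholipases A2 release the arachidonic acid from membrane phospholipids, the cyclooxygenases Ptgs1 and Ptgs2 turn it into prostaglandin H2, and terminal synthases make the final product. The endothelium of large vessels is known for prostacyclin, a vasodilator and inhibitor of platelet aggregation made by the prostacyclin synthase Ptgis. The comparison asked which of these transcripts differed between endothelium of the heart chambers and of the aorta.

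The cyclooxygenases and prostacyclin synthase had lower values on the endocardial array, while the cytosolic phospholipase Pla2g4a had nearly equal values on both. The promoters of both cyclooxygenases are shown because Ptgs1 and Ptgs2 make the same product. That of Pla2g4a is shown because it and Ptgs2 are neighbours on chromosome 13, with no protein-coding gene annotated between them. With the floor explained below, the log2 ratio was -1.25 for Ptgs2 and -0.21 for Pla2g4a. With a floor at the highest background control, also explained below, Ptgs2 had at most -0.28, a bound from S67722_s_at alone. Pla2g4a had -0.21 with both values above that control. A difference between these neighbours was therefore neither shown nor excluded. Each sequence is the 250 bases before the start of the gene in RefSeq (build GRCr8), written on the strand of the gene, at chr3:39981169-39981418 (plus) for Ptgs1, chr13:64713813-64714062 (plus) for Ptgs2 and chr13:64572353-64572602 (minus) for Pla2g4a. Capitals mark matches on either strand to the E-box CACGTG, the cyclic AMP response half-site TGACG, the C/EBP motif TTGCNNAA, the GC box GGGCGG, the TATA box TATAAA and the CCAAT box.
Ptgs1: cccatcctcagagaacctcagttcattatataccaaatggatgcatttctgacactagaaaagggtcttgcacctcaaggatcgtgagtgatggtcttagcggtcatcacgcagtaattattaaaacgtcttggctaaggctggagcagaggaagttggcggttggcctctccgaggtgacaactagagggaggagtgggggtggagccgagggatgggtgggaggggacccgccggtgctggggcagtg
Ptgs2: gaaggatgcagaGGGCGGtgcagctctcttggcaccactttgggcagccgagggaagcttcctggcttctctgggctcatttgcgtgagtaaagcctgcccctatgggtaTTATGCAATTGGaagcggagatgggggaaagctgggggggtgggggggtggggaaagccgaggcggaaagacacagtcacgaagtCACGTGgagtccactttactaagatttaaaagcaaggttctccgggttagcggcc
Pla2g4a: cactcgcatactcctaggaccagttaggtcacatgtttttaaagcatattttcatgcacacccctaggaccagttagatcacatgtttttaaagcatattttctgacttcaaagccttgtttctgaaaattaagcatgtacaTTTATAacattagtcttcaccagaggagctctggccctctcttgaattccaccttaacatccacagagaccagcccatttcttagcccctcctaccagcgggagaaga
The Ptgs2 window held 4 matches, an E-box, a C/EBP motif, a GC box and a CCAAT box. The C/EBP match and the CCAAT box lie on the opposite strand and share 1 base. The Pla2g4a window held 1 match, a TATA box, also on the opposite strand, and the Ptgs1 window held 0. Among all 33469 promoters of this length, 5.59% held the E-box, 18.2% the cyclic AMP response half-site, 9.22% the C/EBP motif, 30.5% the GC box and 12.9% the TATA box, and 11385 of the 33469 held the CCAAT box. These matches describe letters and not bound sites.

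Values are deposited intensities, which can be negative. Ratios are endocardial over aortic after both arrays were brought to the same trimmed mean. Values below a floor of 635.4, the median over all probe sets, were raised to it, and a ratio with 1 side at the floor is a bound. The highest of 38 background controls, probe sets for opposite strands or for bacterial, yeast and mouse transcripts, read 1743.4. Of the 8 member probe sets, 2 exceeded it on both arrays, 2 on the aortic array alone, 0 on the endocardial array alone and 4 on neither. Over all 7006 probe sets with 1 symbol, 29.0% exceeded it on both arrays, 3.58% on the aortic array alone, 3.74% on the endocardial array alone and 63.7% on neither. The 9 hybridisation control probe sets (BioB, BioC, BioDn and CreX), for transcripts commonly added in fixed amounts, had log2 ratios from -0.25 to 0.36. The upper end came from a BioB probe set under the highest background control (1014.3 on the endocardial and 789.3 on the aortic array). These transcripts do not come from the cells, so their range does not include variation between cultures. Where a gene had several probe sets, their log2 ratios had an SD of 0.39 around the gene's mean over 625 genes with values above the floor on both arrays, and 0.30 for 385 genes with values above the highest background control.

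**Figure D1:**
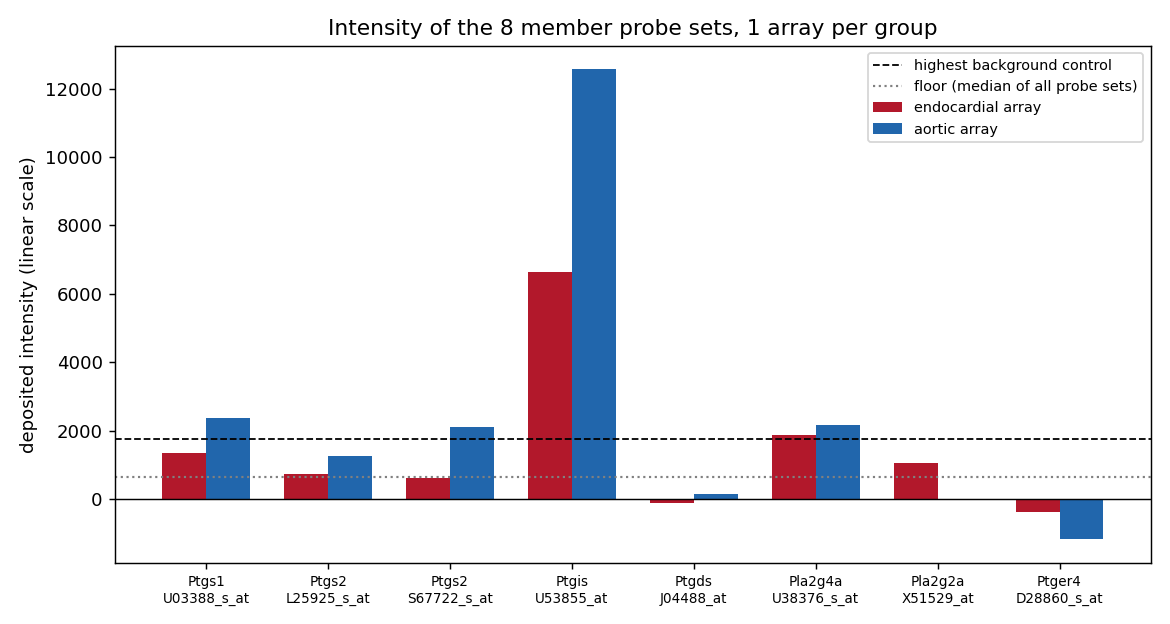
Deposited intensity (linear scale) of each of the 8 member probe sets on the endocardial (red) and the aortic array (blue), with 1 bar per array and no error bars since each group had 1 array. Ptgis and Pla2g4a stood above the highest background control (1743.4, dashed) on both arrays, and Ptgds, Pla2g2a and Ptger4 on neither.

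Of the phospholipases, Pla2g4a, the cytosolic enzyme that prefers arachidonate-containing phospholipids, had an intensity of 1867.2 on the endocardial and 2159.5 on the aortic array. Both values exceeded the highest background control, though by little, and the log2 ratio of -0.21 lay within the range of the hybridisation controls. Pla2g2a, a secreted phospholipase A2 known from inflamed tissue and platelets, read 1054.3 on the endocardial and -23.9 on the aortic array. The endocardial value passed the floor but not the highest background control, so the log2 ratio of at least 0.73 against the floor does not show expression on either array.

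Ptgs1, the cyclooxygenase that many cells make constantly, had an intensity of 1354.4 on the endocardial and 2364.7 on the aortic array. The log2 ratio was -0.81, or 1.75-fold lower on the endocardial array. The aortic value passed the highest background control and the endocardial value did not, so against that control Ptgs1 was at least 1.36-fold lower. In RNA of whole cultures, fewer expressing cells and less RNA per cell cannot be told apart.

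Ptgs2, the cyclooxygenase induced by cytokines and growth factors, was read by 2 probe sets. S67722_s_at had an intensity of 619.1 on the endocardial and 2119.1 on the aortic array, at least 3.34-fold lower against the floor. L25925_s_at had an intensity of 738.8 on the endocardial and 1254.2 on the aortic array, a log2 ratio of -0.77. Both were lower on the endocardial array but differed in size, since the log2 ratio of S67722_s_at was at most -1.74 against the floor. L25925_s_at did not exceed the highest background control on either array. With S67722_s_at taken at the floor, the median of both log2 ratios was -1.25, and 2.52% of the measured genes had a lower ratio. Against the highest background control, the bound for S67722_s_at was only 1.22-fold.

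Ptgis, the synthase that completes prostacyclin, had an intensity of 6653.4 on the endocardial and 12564.1 on the aortic array. Both values were well above the highest background control, and the endocardial value was 52.9% of the aortic one. The log2 ratio was -0.92, or 1.89-fold lower, and 5.32% of the measured genes had a lower ratio. That value was outside the range of the hybridisation controls, which does not include variation between cultures. Ptgis rested on 1 probe set, so no second reading was available. The genes nearest to Ptgis by the distance between the log2 intensities, over 2 arrays, were Rnase4 (distance 0.12, 7199.6 on the endocardial and 12812.6 on the aortic array), Sfxn1 (0.19) and Drd3 (0.24). For Pla2g4a they were Golga2 (0.014), Cyp4f6 (0.017) and Prmt3 (0.025). With 2 values per gene, these distances describe similar readings and do not show shared regulation.

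Ptgds, the lipocalin-type prostaglandin D synthase, read -111 on the endocardial and 151.2 on the aortic array. Ptger4, a prostaglandin E2 receptor that raises cyclic AMP, read -381.5 on the endocardial and -1174.1 on the aortic array. Neither gene reached the floor on either array, so no ratio was taken, which at this sensitivity does not show that they are absent.

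**Figure D2:**
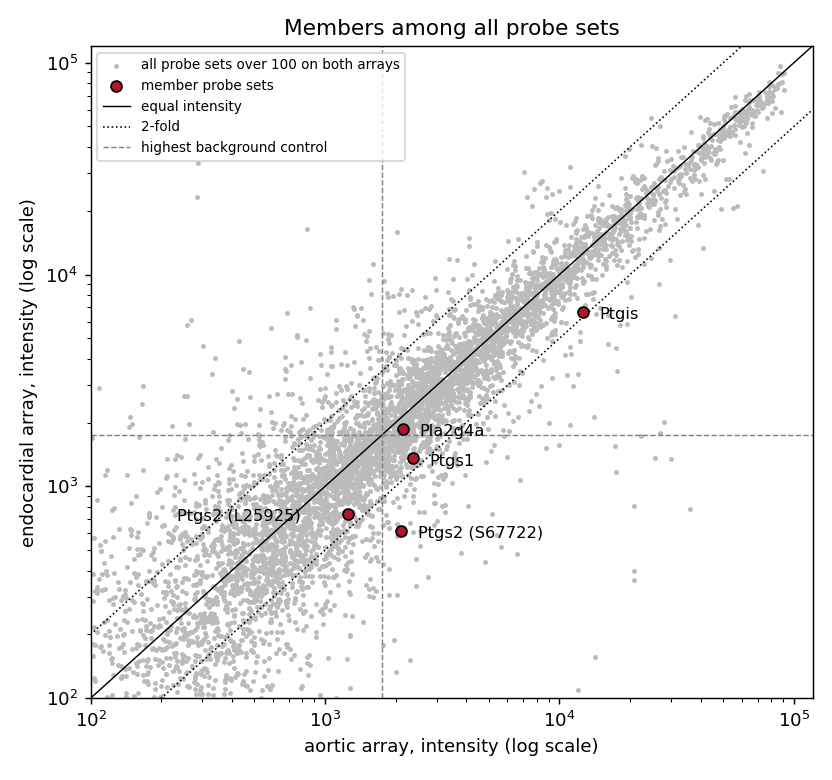
Intensity on the endocardial array (vertical, log scale) against that on the aortic array (horizontal, log scale) for all probe sets above 100 on both (grey), with the 5 member probe sets in that range in red and Ptgs2 labelled by probe set. Ptgis and Ptgs1 lie just inside the 2-fold line (dotted), S67722_s_at of Ptgs2 lies beyond it, and the grey cloud widens under the highest background control (dashed).

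Taking the 7 genes as a set, 5 were measured above the floor on at least 1 array. Of these, 0 passed 2-fold in the higher direction, against 5.93% of all 2935 measured genes, and 1 passed it in the lower direction, Ptgs2, against 4.16%. With so few members neither share can be set apart from the background. The median log2 ratio of the 5 was -0.81, beside -0.02 over all measured genes, whose middle 90% ran from -0.94 to 1.09. With the floor raised to the highest background control, 4 members were measured and 0 passed 2-fold in either direction, against 3.99% higher and 2.36% lower of 1904 genes.

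Other genes of the arachidonate pathway went both ways. Of 54 listed, 35 had a probe set of their own and 19 were measured. Of the 19, 2 were past 2-fold in the higher direction (Lta4h and Ephx1), against 5.93% of all measured genes. Another 2 were at least 2-fold lower (Tbxa2r and Mgll), against 4.16%, and 15 lay between. The calls of Lta4h and Mgll used a value at the floor. The median log2 ratio of the 19 was -0.41, beside -0.02 over all measured genes. With the floor raised to the highest background control, 0 of 14 were higher, against 3.99% of all genes measured. In the lower direction there was 1, Tbxa2r, against 2.36%.

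Among the receptors, Tbxa2r, the thromboxane receptor that constricts vessels and activates platelets, had an intensity of 1680.3 on the endocardial and 3887.7 on the aortic array, 2.32-fold lower. The endocardial value was just under the highest background control, against which the fold was at least 2.23, and the other Tbxa2r probe set was negative on both arrays. Ptgir, the prostacyclin receptor, had an intensity of 1869.5 on the endocardial and 2783 on the aortic array, a log2 ratio of -0.58 with both values above the control. The endocardial Ptgir value exceeded the control by little, and Ptgir and Ptgis each rested on 1 probe set. The synthase and the receptor of prostacyclin both had a lower reading on the endocardial array, neither past 2-fold. Ptgfrn, a protein that binds and restrains the prostaglandin F receptor, had a log2 ratio of -0.43, with -0.48 and -0.38 for its probe sets. Ptger3, a prostaglandin E2 receptor that lowers cyclic AMP, had a log2 ratio of 0.14 from the 1 of its 3 probe sets above the floor.

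Of the proteins that restrain phospholipase A2, S100a10, which partners annexin A2, had an intensity of 17048.7 on the endocardial and 26864.7 on the aortic array, a log2 ratio of -0.66. Its partner Anxa2 had a log2 ratio of -0.41. The glucocorticoid-induced Anxa1 had log2 ratios of 0.08 and -0.31 for its probe sets, which do not share a sign. Akr1b1, an aldose reductase with prostaglandin F synthase activity, had a log2 ratio of 0.25. Gstm2, whose human counterpart can convert prostaglandin H2 to E2, had -0.41. Cbr1, a carbonyl reductase that converts prostaglandin E2 to F2α, had a log2 ratio of 0.25.

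In the other branches, Ephx1, the microsomal epoxide hydrolase, had an intensity of 3408.7 on the endocardial and 1022.6 on the aortic array, at least 1.96-fold higher against the highest background control. Lta4h, which makes leukotriene B4, was read by a pair of probe sets that disagreed in size. S87522_at had an intensity of 14757.3 on the endocardial and 11753.9 on the aortic array, a log2 ratio of 0.33. S87522_g_at had an intensity of 5223.5 on the endocardial and -1902.2 on the aortic array. The aortic value was far below 0 on an array where the other probe set of Lta4h was bright, so the gene ratio of 1.68 rests on that 1 reading. Mgll, a lipase that frees arachidonic acid from an endocannabinoid, read -27.8 on the endocardial and 1283.1 on the aortic array, neither above the highest background control. Acsl4, which recaptures free arachidonic acid as its coenzyme A ester, had a log2 ratio of 0.20, and the fatty acid hydroxylase Cyp4a8 had -0.87. For Cyp4a8, M37828_at had 1717.2 on the endocardial and 2789.6 on the aortic array, at least 1.60-fold lower against the highest background control. The other Cyp4a8 probe set did not exceed that control on either array.

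**Figure D3:**
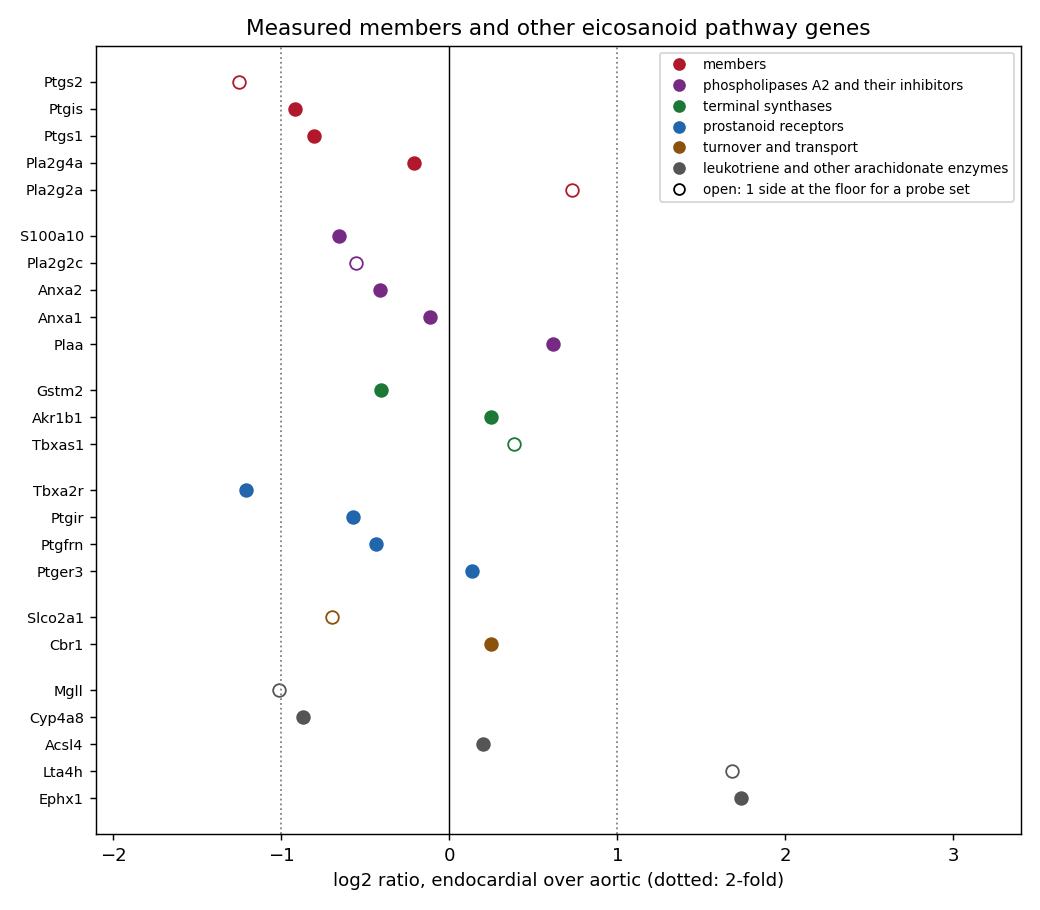
Log2 ratio (endocardial over aortic) of each measured gene, 1 point per gene, grouped by role, with members at the top and open points where a probe set had 1 side at the floor. Ptgs2, Tbxa2r and Mgll lie beyond the lower 2-fold line (dotted) and Lta4h and Ephx1 beyond the upper one.

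The ratios also depended on which transcripts were taken to be equal. The 3 GAPDH control probe sets, for a glycolytic enzyme often used as a reference, had log2 ratios from -0.54 to -0.39, and the 3 beta-actin ones from -0.18 to -0.16. With GAPDH set equal on both arrays the median log2 ratio over all measured genes was 0.40. Ptgis then had a log2 ratio of -0.46, Ptgs1 -0.35, Ptgs2 -0.81 and Pla2g4a 0.25, so the sign of the Pla2g4a ratio depended on the scale. That scale shifted ratios with both values above the floor alike, and ratios with a value at the floor by less. With GAPDH as the scale the calls at 2-fold were 383 higher and 61 lower over all genes, 13.7% of them lower, beside 174 higher and 122 lower, 41.2% lower, as reported here. With beta-actin as the scale the all-gene median was 0.14, 28.3% of calls were lower and Ptgis had -0.75.

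**Figure D4:**
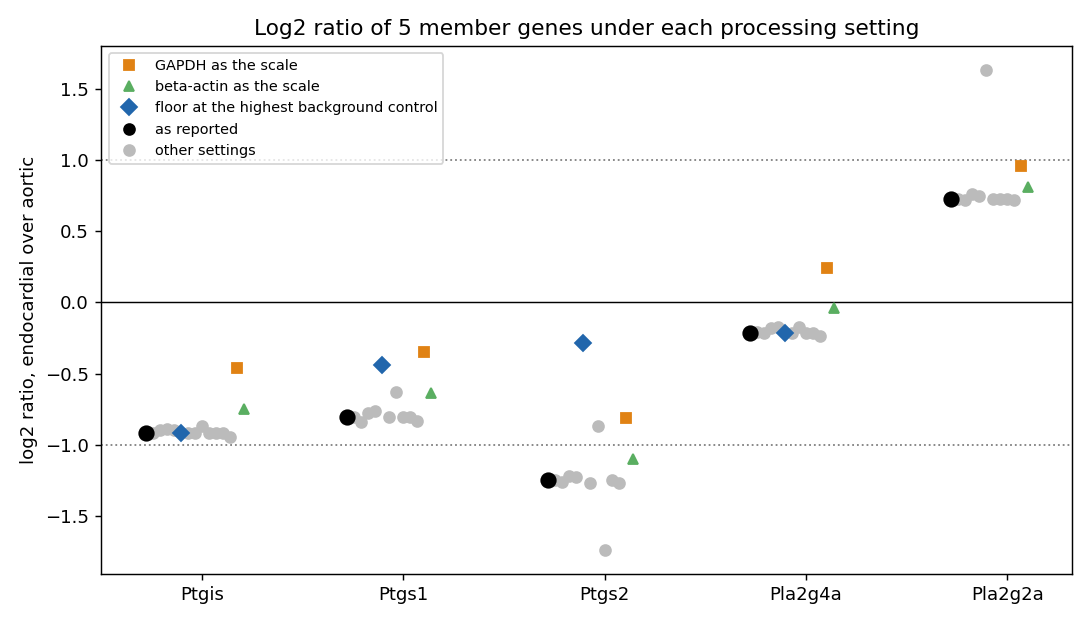
Log2 ratio (endocardial over aortic) of 5 member genes, 1 point per processing setting, with the reported value in black, and no error bars. Ptgis, Ptgs1 and Ptgs2 were below 0 under every setting shown, and Pla2g4a was above 0 with GAPDH as the scale.

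The labelled cell type had limited marker evidence. Smooth muscle and fibroblast markers were bright on both arrays, and markers of other cells differed between the arrays. Of 9 endothelial markers on the array, 2 exceeded the highest background control with at least 1 probe set on the endocardial and 4 on the aortic array, Nos3 by 1 of its probe sets (1437.6 on the endocardial and 1830.6 on the aortic array), and Vwf, Pecam1, Kdr, Flt1 and Icam2 did not on either. Taking 1 probe set per gene, the brightest, their intensities summed to 11113 on the endocardial and 11005 on the aortic array, but members went opposite ways. Edn1 had 4096.9 on the endocardial and 1872.8 on the aortic array, and Ace had 1028.3 on the endocardial and 2295.5 on the aortic array. Macrophage and leukocyte markers exceeded the control for 5 of 7 genes on the endocardial and 1 of 7 on the aortic array, and summed to 47951 on the endocardial and 8621 on the aortic array. Lyz2 gave 33638.5 of the endocardial sum. Csf1r and Ptprc did not exceed it on either array. Smooth muscle markers exceeded it for 4 of 6 genes on the endocardial and 5 of 6 on the aortic array, and summed to 157281 on the endocardial and 119839 on the aortic array. Most of both sums came from Tagln (69127.3 on the endocardial and 55901.3 on the aortic array) and Acta2 (56673.6 and 51073). Of the other smooth muscle markers, Myl9 had 26999.1 on the endocardial and 8254.5 on the aortic array. Myh11 had 614.5 on the endocardial and 2531.4 on the aortic array. Fibroblast markers did so for 6 of 7 genes on the endocardial and 7 of 7 on the aortic array, and summed to 237198 on the endocardial and 266096 on the aortic array, mostly from collagens. Within them Dcn had 1729.6 on the endocardial and 22298.3 on the aortic array, and Postn had 15948.7 on the endocardial and 2025.2 on the aortic array. Mesothelial markers did so for 1 of 5 genes on the endocardial and 0 of 5 on the aortic array, and summed to 3589 on the endocardial and 1976 on the aortic array. The part of these cells in the readings of Ptgs1, Ptgs2 and Ptgis was not tested. The ratio of 3' to 5' signal was 1.09 on the endocardial and 1.11 on the aortic array for beta-actin, and 1.21 on the endocardial and 1.17 on the aortic array for GAPDH. For the dimmer hexokinase control it was higher, 1.69 on the endocardial and 1.75 on the aortic array.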

How the data were processed

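Per the labels, total RNA of 1 endocardial and 1 aortic culture was hybridised to the Affymetrix rat genome U34A array. The authors deposited 1 linear intensity per probe set and array, and no source used here names the probe summary method. Of 8799 probe sets, 59 controls were left out of gene values. Both arrays were scaled to the same 2% trimmed mean (factors 0.999 for the endocardial and 1.00 for the aortic array), floored at the median, and a probe set that did not pass it on either array was dropped, leaving 4808 probe sets and 2935 genes. A gene took the median over its probe sets. Symbols came from the platform annotation, and all 8 member probe sets matched RefSeq (GRCr8) by gene identifier with the same symbol. The number of arrays, 1 per group, limits the precision. The members and lists were chosen with earlier results of these data known. All members were named, with the pathway genes past 2-fold or above the highest background control and the 3 nearest genes of members above it on both arrays. The hybridisation, GAPDH and beta-actin scales were added after the data were seen. Steps were tested on simulated data with less noise than the spread between probe sets of a gene. Recovery was checked only for genes with no value at the floor, so ratios that are bounds were not tested. Python 3.11.15, pandas 2.3.3, numpy 2.4.6 and statsmodels 0.14.6 were used. A span of 0.4 was used for the loess and a pseudocount of 500.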

Additional observations from a re-analysis of the deposited data

Results flagged for a closer look

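A probe set for Faah, the hydrolase that breaks down the endocannabinoid anandamide, was left out above because its annotation gives more than one gene identifier. Its intensity was 3123.2 on the endocardial and 3733 on the aortic array, both above the highest background control, with a log2 ratio of -0.26. It is listed here as a signal outside the comparisons.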

How the results depend on the processing

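Ptgis, Ptgs1 and Ptgs2 were lower on the endocardial array under each alternative that gave a value, 14 for Ptgis (log2 ratio -0.94 to -0.46), 12 for Ptgs1 (-0.84 to -0.35) and 12 for Ptgs2 (-1.74 to -0.28), and Ptgs2 was past 2-fold under 9 of its 12. All alternatives reprocessed the same deposited values, so they are not repeated measurements. A changed floor or a pseudocount could not reverse the sign of a probe set with a lower value. Pla2g4a, read by 1 probe set, came to 0.25 with GAPDH as the scale and was negative under the other 11. The GAPDH scale moved all ratios with both values above the floor alike. Among members, 1 gene was measured with the floor at the 75th percentile and 2 with plain probe sets alone. Members at least 2-fold lower came to 0 with a floor at the highest background control or the 75th percentile, with a pseudocount, with plain probe sets alone and with GAPDH as the scale, and to 3 at 1.5-fold and 0 at 4-fold. Members higher came to 1 with a pseudocount and 1 at 1.5-fold. Other pathway genes at least 2-fold lower came to 1 with median centring, loess, the floor at the control, a pseudocount or beta-actin as the scale, to 0 with GAPDH as the scale or a floor at the 75th percentile, and to 4 with no floor. Those higher came to 0 with a floor at the control or the 75th percentile, and to 1 with the brightest probe set or plain probe sets. Over all genes, higher and lower counts were 76 and 45 with the floor at the control, 45 and 40 at the 75th percentile, 342 and 410 with no floor, 385 and 329 at 1.5-fold, 39 and 18 at 4-fold, and 383 and 61 with GAPDH as the scale. The higher floors leave fewer genes measured, and the cause of the other changes was not tested. Signal near background limits Ptgs1, Ptgs2, Pla2g4a and Pla2g2a. No paired analysis was possible because each group had 1 array.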
